A study of Danio rerio with 4 samples.

Results

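The genes described here are 5 genes of the collagen-rich cartilage matrix and its assembly (col10a1a, matn1, col2a1a, col9a2 and the collagen chaperone gene serpinh1b) and the 2 zebrafish genes for the chondrogenic regulator Sox9 (sox9a and sox9b). They were picked by gene symbol in the array's annotation, with their mutant and wild-type signals already known, so their differences are given as a description, without a test. The 7 genes are read by 8 of the 15617 probe sets on the array, and 6 of these 8 passed the filter on dim signals. RNA from embryonic zebrafish brain was hybridised to 1 array for the wild type and to 3 arrays for the foggy mutant. The wild-type sample is labelled 36 h, and the mutant samples are labelled 36, read here as hours. The labels name no strain, allele, zygosity or number of pooled embryos, and give no statement that the 3 mutant samples came from separate clutches. The foggy locus encodes Spt5 (supt5h), a transcription elongation factor that travels with RNA polymerase II. The tissue is labelled as brain, with nothing said of skull, ear or arch tissue taken along.

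Cartilage is a stiff, avascular matrix secreted by chondrocytes. Its fibrils are built of type II collagen, with type XI collagen in their core and type IX collagen on their surface, and matrilins link the fibrils to proteoglycans. Type X collagen belongs to hypertrophic cartilage in vertebrates, and in zebrafish it is also made by bone-forming cells. Newly made collagen chains fold in the endoplasmic reticulum, where Hsp47, the product of serpinh1b, binds the triple helix until it can be exported. Sox9 is the transcription factor that commits mesenchyme to cartilage. It acts with Sox5 and Sox6, and in mouse it directly activates the genes of type II, IX and XI collagen and of matrilin-1. In zebrafish sox9a and sox9b share this task in the cranial skeleton, and sox9 genes are also transcribed in neural progenitors and glia, outside the skeleton.

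The chosen matrix genes and serpinh1b were lower in all 3 mutant arrays. The sox9b probe set with a readable signal lay at the wild-type level, and sox9a was too dim to read. The lower signals ranged from 7.49% of the wild-type signal for col10a1a to 65.1% for col2a1a and col9a2. The mutant signals of col10a1a were under the level of the dim filter, so its share is not exact. The readable sox9b probe set averaged 100.4% of the wild-type signal. With a single wild-type array, every error given comes from the spread among mutant arrays, and the wild type's own spread was not measured. Fold changes here are on the scale of log2(intensity + 16.3), where 16.3 is the pseudocount, and they understate the change of weak signals. Over all 10851 probe sets tested, 28.4% had all 3 mutant arrays below the wild-type array and 36.2% had all 3 above it, and limma called 3.14% lower and 2.36% higher. In RNA of tissue labelled only as brain, 3 things cannot be told apart: fewer cells of a type, less RNA per cell, and unequal amounts of other tissue taken along.

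**Figure D1:**
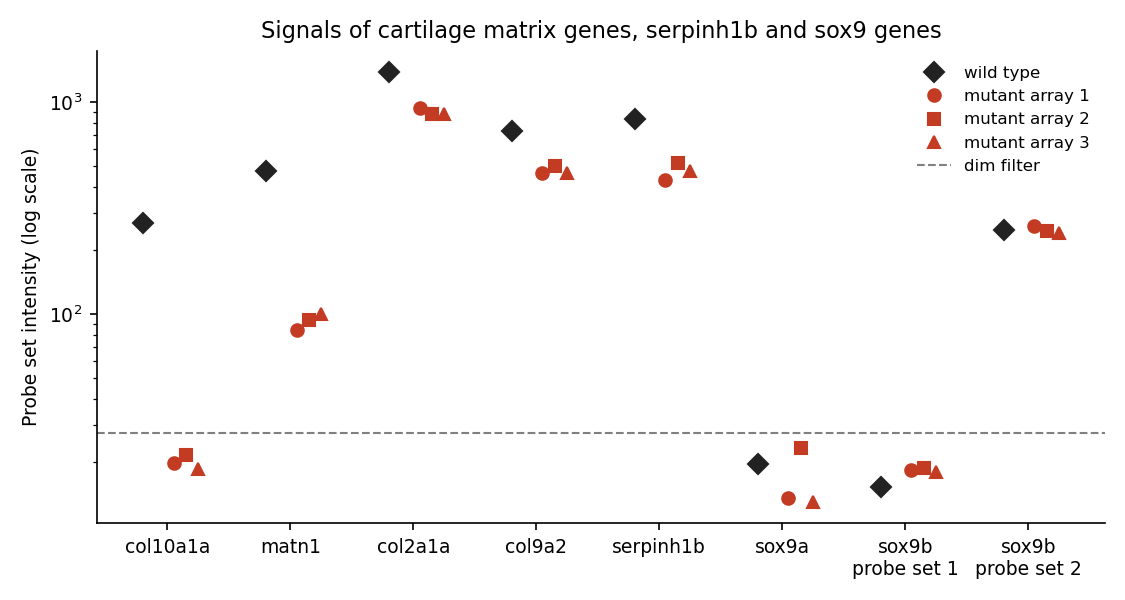
Probe set intensity (log scale) of the 7 genes in the wild-type array (black diamonds) and the 3 mutant arrays (red), with sox9b shown for both of its probe sets. The dashed line is the signal under which a probe set with a constant value was treated as dim (27.5). The wild type lies above the mutants for the 5 genes on the left, and among the mutants for the second sox9b probe set.

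The type X collagen gene col10a1a gave a signal of 269 on the wild-type array, against 19.98, 21.7 and 18.7 on mutant arrays 1, 2 and 3. The wild type stood far above the mutants, and the mutant signals all lay under 27.5, the level of the dim filter. With that level in place of the mutant signals, col10a1a was at least 6.51-fold lower in the mutant. It passed the filter through its wild-type signal alone, so the fitted log2 difference of -2.97 (SE 0.157) is no exact size, and it was -3.68 with a pseudocount of 1 and -2.18 with a pseudocount of 50. Ordered from the lowest difference, it came first among the 8173 tested probe sets with a single gene name, and in place 3 with a pseudocount of 50. The gene was picked with its values known, so this place is a description and no support for a fall. Under a filter at the 50th percentile it was not tested. Its paralog col10a1b read between 7.52 and 12.8 in the 4 arrays, too dim for a comparison.

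The matrilin gene matn1, for a matrix protein of cartilage that binds collagen fibrils, read 475 on the wild-type array, against 84.6, 93.9 and 101 on the mutant arrays. All mutant arrays lay far below the wild type. The log2 difference was -2.17 (SE 0.118), 4.50-fold lower, and the mutant mean of 93.0 ± 8.01 (SD, n = 3) was 19.6% of the wild-type signal.

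The type II collagen gene col2a1a, for the main fibril protein of cartilage, read 1387 on the wild-type array, against 939, 886 and 882 on the mutant arrays. The groups did not overlap. The log2 difference was -0.61 (SE 0.066), 1.53-fold lower. The type IX collagen gene col9a2, for one chain of the fibril surface collagen, read 731 on the wild-type array, against 463, 501 and 464 on the mutant arrays. It was 1.52-fold lower (log2 difference -0.60, SE 0.075). Both genes kept 65.1% of the wild-type signal, against 19.6% for matn1 and 7.49% for col10a1a, whose mutant signals were too dim for an exact share. Among the chosen matrix genes, picked with their values known, the lower signals thus differed widely in size.

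The collagen chaperone gene serpinh1b read 835 on the wild-type array, against 428, 517 and 477 on the mutant arrays. All 3 mutants were below the wild type, with mutant array 1 the lowest. The log2 difference was -0.80 (SE 0.096), 1.74-fold lower, and the mutants averaged 56.8% of the wild-type signal. The spread between mutants, 9.44% of their mean, was wider than that of col2a1a (3.52%) and of col9a2 (4.57%). It was nearer to that of matn1 (8.61%) and of the dim col10a1a mutant signals (7.43%).

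The regulator genes gave another picture. The brighter sox9b probe set read 249 on the wild-type array, against 261, 246 and 242 on the mutant arrays, so that the wild-type value fell inside the mutant range. Its log2 difference was 0.01 (SE 0.088). The other sox9b probe set read 15.4 on the wild-type array, against 18.4, 18.8 and 18.1 on the mutant arrays, higher in all 3 but under the dim filter in all 4 arrays. The single sox9a probe set read 19.6 on the wild-type array, against 13.6, 23.4 and 13.1 on the mutant arrays, also dim, with mutant array 2 above the wild type and the other two below it. The array therefore gives a level for 1 of the 2 Sox9 genes, and at sox9a a change could not be read at this signal.

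The other cartilage collagens on the array were examined through a list of textbook genes. Among all named genes tested, each by its brightest probe set, 3.74% were lower and 2.19% higher in the mutant at a limma adjusted p under 0.05, with a median log2 difference of 0.02. Of 4 tested cartilage collagen genes outside the chosen set, 2 fell, 0 rose and 2 did not pass, with a median of -0.37. Both that fell encode further chains of type IX collagen. The gene col9a3 read 736 on the wild-type array, against 459, 504 and 499 on the mutant arrays. It fell 1.49-fold (log2 SE 0.077, limma adjusted p = 0.00191). The gene col9a1b read 148 on the wild-type array, against 82.8, 74.3 and 103 on the mutant arrays. It fell 1.60-fold (log2 SE 0.160, limma adjusted p = 0.0380). With col9a2, the 3 type IX chains measured differed by -0.60, -0.58 and -0.68 on the log2 scale, close to -0.61 for col2a1a. Neither of the 2 calls held with no variance trend (limma adjusted p = 0.0718 for col9a3 and 0.138 for col9a1b) or when the wild type was given 2 times the SD of the mutants (the doubled wild-type SD below) (0.175 and 0.878), and that of col9a1b was also lost with no filter on dim probe sets (0.0867).

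Type XI collagen, the core of the same fibrils, gave smaller differences. The gene col11a1a read 693 on the wild-type array, against 604, 598 and 647 on the mutant arrays, and its difference of -0.16 on the log2 scale (SE 0.072) missed the threshold (limma adjusted p = 0.233). The gene col11a2 was near the dim level, at 43.1 on the wild-type array, against 35.3, 42.7 and 44.3 on the mutant arrays, and the groups overlapped. Whether the type IX and type XI genes differ from each other was not tested.

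**Figure D2:**
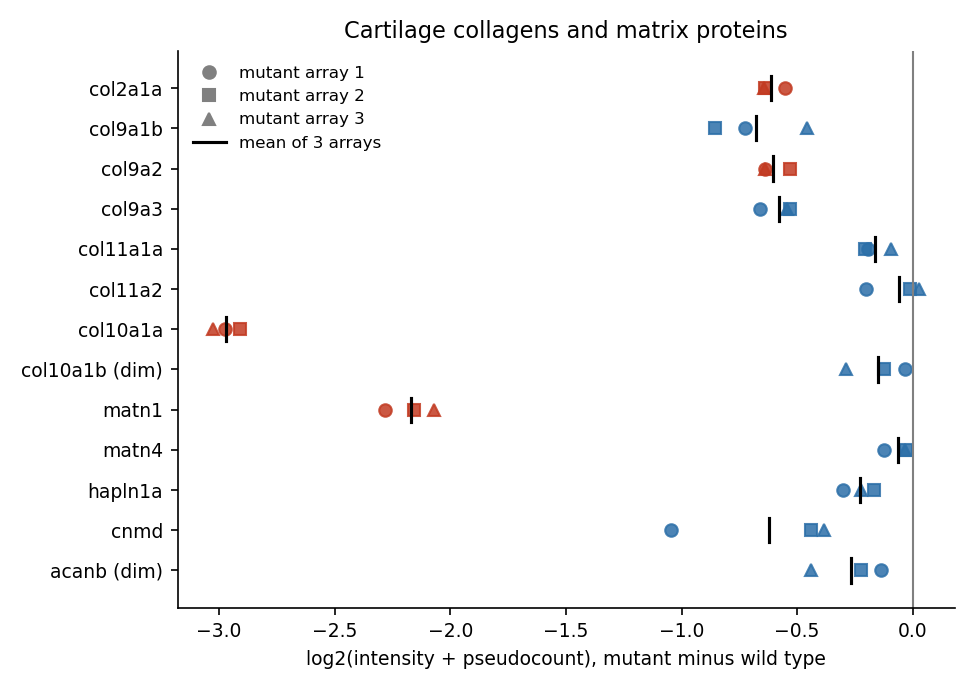
Difference in log2(intensity + pseudocount) between each mutant array and the wild-type array for 13 cartilage collagen and matrix genes, one row per gene, with the mean as a black bar. Red marks genes chosen with their values known and blue marks the others. The differences of col10a1a (-2.97) and matn1 (-2.17) stand apart from those of the type II and type IX genes, which lie between -0.68 and -0.58 on average.

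Of 7 tested cartilage matrix proteins other than collagen, leaving out matn1, 0 passed limma's test in either direction (2 were lower and 0 higher at an unadjusted p under 0.05). Their median log2 difference was -0.06, and limma called 3.74% of all named genes lower and 2.19% higher. The relative of matn1, matn4, read 1143 on the wild-type array, against 1047, 1119 and 1117 on the mutant arrays (log2 difference -0.06, limma adjusted p = 0.658). The link protein gene hapln1a, whose product ties proteoglycans to hyaluronan, read 747 on the wild-type array, against 603, 663 and 637 on the mutant arrays on its brightest probe set (log2 difference -0.23, limma adjusted p = 0.107). It has 6 probe sets, of which 5 were tested. In all 5 every mutant array was below the wild type, a pattern seen in 28.4% of all tested probe sets. None of the 5 passed (adjusted p between 0.0599 and 0.504), and they read the same gene against the same wild-type array. Without mutant array 1 the brightest one passed (-0.20, adjusted p = 0.00803). The chondromodulin gene cnmd, for a membrane protein of cartilage that inhibits vessel growth, read 477 on the wild-type array, against 223, 348 and 361 on the mutant arrays, with mutant array 1 apart from the others. Its log2 difference of -0.62 did not pass on the brightest probe set (adjusted p = 0.115) and passed on its other one (-0.61, adjusted p = 0.0496). The brightest cnmd probe set differed by -0.41 without mutant array 1, by -0.71 without array 2 and by -0.74 without array 3. It passed in each of these settings, where the spread comes from only 2 mutant arrays. The aggrecan gene acanb was dim in all 4 arrays, between 11.3 and 21.2.

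Most collagens made mainly outside cartilage did not pass the test. Of 11 tested, 1 fell, 0 rose and 10 did not pass, where all named genes gave 3.74% lower and 2.19% higher. The median of the 11 was -0.03. The one that fell was col5a2a, for a chain of the type V collagen found in fibrils of bone and skin, which read 158 on the wild-type array, against 87.6, 82.2 and 83.1 on the mutant arrays (a fall of 1.73-fold, log2 SE 0.123, limma adjusted p = 0.00516, and 0.339 under the doubled wild-type SD). The microfibril collagen gene col6a3 read 110 on the wild-type array, against 73.7, 75.7 and 54.7 on the mutant arrays (log2 difference -0.60, adjusted p = 0.0791, 0.00360 without mutant array 1 and 0.0355 without array 2). The skin anchoring collagen gene col17a1b differed by 0.18 (adjusted p = 0.517). The bone and skin collagen gene col1a1a read 1304 on the wild-type array, against 1478, 1323 and 1376 on the mutant arrays (log2 difference 0.09, adjusted p = 0.523). Its partner col1a2 read 1139 and 1229, 1075 and 1061, with overlapping groups (-0.03, adjusted p = 0.906), while a second col1a2 probe set differed by -0.22 (adjusted p = 0.135).

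Among the other genes that fold, hydroxylate and cross-link collagen, most means lay below 0 by small amounts. Of 11 tested, 1 fell, 0 rose and 10 did not pass, where all named genes gave 3.74% lower and 2.19% higher. In 10 of 11 every mutant array was below the wild type, against 28.4% of all tested probe sets and 2062 of 6852 named genes. All 11 were set against the same wild-type array, so they are not independent observations. The median log2 difference was -0.25. The gene that fell was crtap, for a partner of the collagen prolyl 3-hydroxylase, which read 510 on the wild-type array, against 412, 408 and 411 on the mutant arrays (a fall of 1.23-fold, log2 SE 0.071, limma adjusted p = 0.0370). The prolyl isomerase gene fkbp14 read 158 on the wild-type array, against 118, 107 and 110 on the mutant arrays (-0.45, adjusted p = 0.0554, and 0.0429 after cyclic loess). The prolyl 4-hydroxylase subunit gene p4ha1b read 136 on the wild-type array, against 95.9, 105 and 95.6 on the mutant arrays (-0.40, adjusted p = 0.0937). The lysyl hydroxylase gene plod1a was the exception, at 281 on the wild-type array, against 288, 287 and 280 on the mutant arrays. The call of crtap did not hold when mutant array 2 or 3 was left out. It was also lost with no filter (adjusted p = 0.0617), with no variance trend (0.185) and under the doubled wild-type SD (0.867). Without mutant array 1 more of the 11 passed as lower, and more probe sets passed in both directions over the whole array.

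**Figure D3:**
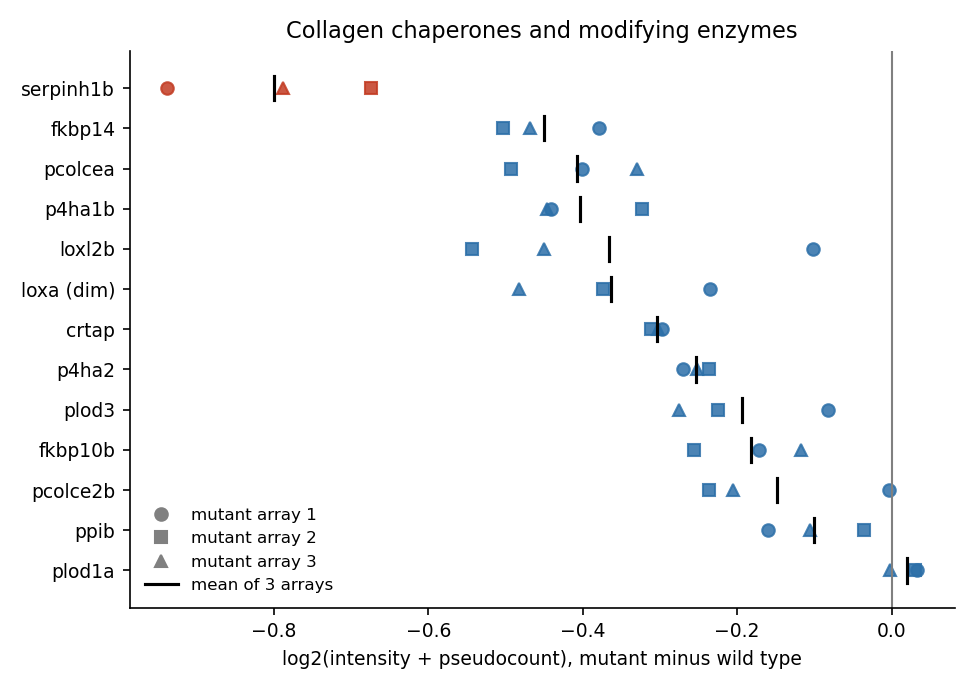
Difference in log2(intensity + pseudocount) between each mutant array and the wild-type array for 13 collagen chaperones and modifying enzymes, ordered by their mean (black bar), with serpinh1b in red. The mean of serpinh1b (-0.80) is the lowest, and plod1a (0.02) is the only mean above 0, which cyclic loess turned to -0.01.

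Few genes of the vesicle coat that carries collagen out of the endoplasmic reticulum, and of its control, passed the test. Of 15 tested coat, cargo receptor and secretory control genes, 2 fell, 0 rose and 13 missed the threshold. All named genes gave 3.74% lower and 2.19% higher. The median of the 15 genes was -0.02. The coat gene sec23b read 242 on the wild-type array, against 161, 170 and 172 on the mutant arrays (1.40-fold lower, limma adjusted p = 0.0191). The gene xbp1, for a transcription factor of the secretory stress response, was 1.22-fold lower (adjusted p = 0.0288), a call lost without mutant array 2 (0.0695) or 3 (0.0993) and with no filter on dim probe sets (0.0608). The paralog sec23a, whose loss in zebrafish blocks cartilage collagen secretion, read 318 on the wild-type array, against 320, 304 and 320 on the mutant arrays (log2 difference -0.02, adjusted p = 0.938). The cargo receptor gene tmed2 (-0.22, adjusted p = 0.107) and the coat gene sec13 (-0.22, adjusted p = 0.1504) did not pass, and both passed without mutant array 1 (0.00322 and 0.00924). With the doubled wild-type SD the sec23b and xbp1 calls were both lost (adjusted p = 0.691 and 0.779), as they were with no variance trend (0.0925 and 0.212).

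Few enzymes that build the sugar chains of proteoglycans passed the test, where all named genes gave 3.74% lower and 2.19% higher. Of 17 tested, 1 fell, 1 passed as higher and 15 did not pass, with a median of 0.10. The higher one, chst11, was dim in the wild type. The xylose donor enzyme gene uxs1, needed for cartilage matrix in zebrafish, read 195 on the wild-type array, against 147, 126 and 131 on the mutant arrays (1.40-fold lower, limma adjusted p = 0.0394, lost without mutant array 2 at 0.0595). The chondroitin sulfotransferase gene chst11 read 10.2 on the wild-type array, against 34.7, 30.6 and 44.2 on the mutant arrays, and it passed as higher (limma adjusted p = 0.0180). The wild-type chst11 signal lies under the dim level and the gene passed the filter through its mutant signals alone, so its rise is given as a bound of at least 1.20-fold. It was not tested with a pseudocount of 1 or a filter at the 50th percentile, and the call was lost with no filter (adjusted p = 0.0524), with no variance trend (0.0546) and under the doubled wild-type SD (0.670). The sulfate donor enzyme gene papss2b, at 468 on the wild-type array, against 373, 372 and 390 on the mutant arrays, was near the threshold (-0.30, adjusted p = 0.0526, and 0.00174 without mutant array 1, where papss1 also passed, as higher, at 0.0235). The linker enzyme gene b3gat3 read 20.4 on the wild-type array, against 43.8, 28.8 and 44.4 on the mutant arrays, with mutant array 2 the lowest. It too passed the filter through its mutant signals alone, so its difference is given as a bound of at least 1.25-fold. Its wild-type signal was also dim, and it did not pass (adjusted p = 0.143, and 0.0355 without mutant array 2). The uxs1 call was lost under the same 3 settings (0.0749, 0.130 and 0.883).

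Among transcription factors of the skeleton 1 passed the test, where all named genes gave 3.74% lower and 2.19% higher. Of 27 tested besides sox9b, limma called 0 lower, 1 higher and 26 not past the threshold (2 were lower and 3 higher at an unadjusted p under 0.05), with a median of 0.07. The homeobox gene dlx2a, active in arch mesenchyme and in the forebrain, read 272 on the wild-type array, against 392, 384 and 399 on the mutant arrays (1.42-fold higher on the scale with the pseudocount, SE 0.076 on the log2 scale, adjusted p = 0.00451). That call was lost with no variance trend (0.0774) and under the doubled wild-type SD (0.315). The jaw joint factor gene nkx3-2 read 81.4 on the wild-type array, against 134, 131 and 104 on the mutant arrays (log2 difference 0.50, adjusted p = 0.0832, 0.0184 without mutant array 1 and 0.0132 without array 3). Its neighbour in rank was the homeobox gene dlx6a (0.31, adjusted p = 0.128, and 0.0488 without mutant array 1). Leaving out array 1, a setting with more calls over all probe sets, also gave a fall, of dlx4a (-0.30). The Sox9 partner gene sox5 read 56.2 on the wild-type array, against 52.1, 61.0 and 53.8 on the mutant arrays, with overlapping groups (-0.01, adjusted p = 0.975). The bone factor gene runx2a overlapped between groups (103 on the wild-type array, against 103, 145 and 89.6 on the mutant arrays), and sp7, which marks bone-forming cells, was dim at 2.56 to 4.94.

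Beside sox9b, 12 other Sox genes were tested, each by its brightest probe set. On these 0 fell, 2 were called higher and 10 did not pass, with a median of -0.04. All named genes gave 3.74% lower and 2.19% higher. The neural progenitor gene sox3 read 1077 on the wild-type array, against 1254, 1412 and 1390 on the mutant arrays (1.25-fold higher, limma adjusted p = 0.0384). Its other probe sets differed by 0.27 and 0.17 and did not pass. The gene sox11b was called higher on its brightest probe set (0.26, adjusted p = 0.0351) and lower on another (-0.89, adjusted p = 3.78e-04). Its remaining probe set differed by 0.05 without passing, so the gene has no single direction. The progenitor genes sox21b (-0.23, adjusted p = 0.287) and sox19a (0.15, adjusted p = 0.310, and 0.0497 without mutant array 1) did not pass. The crest and ear gene sox10 read 128 on the wild-type array, against 125, 115 and 106 on the mutant arrays (-0.14, adjusted p = 0.592). The higher calls of the brightest sox3 and sox11b probe sets were each lost with no filter on dim probe sets, after cyclic loess and with no variance trend. They were also lost under the doubled wild-type SD and without mutant array 2 or 3.

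Of the signals that guide skeletal differentiation none passed with all arrays, where all named genes gave 3.74% lower and 2.19% higher. Of 25 tested ligands, receptors and Smads of the Bmp, Tgf-beta, Fgf, Hedgehog and endothelin pathways, limma called 0 in either direction (3 were lower and 1 higher at an unadjusted p under 0.05), with a median of -0.04. The nearest to the threshold were fgf8a, which read 25.3 on the wild-type array, against 40.1, 48.9 and 50.7 on the mutant arrays (0.59, adjusted p = 0.0814), and the receptor gene fgfr2 (-0.26, adjusted p = 0.149). The wild-type fgf8a signal lies under the dim level of 27.5. That gene passed the filter through its mutant signals alone, so its difference is no exact size. Without mutant array 1 fgfr2, fgfr3 (-0.39) and nog3 (-0.45) passed as lower. The gene fgf8a then passed as higher, with the same limit from its dim wild-type signal. In that setting more probe sets passed in both directions over the whole array. Both Indian hedgehog genes, ihha and ihhb, whose products pace cartilage maturation, were dim at 2.45 to 6.95.

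**Figure D4:**
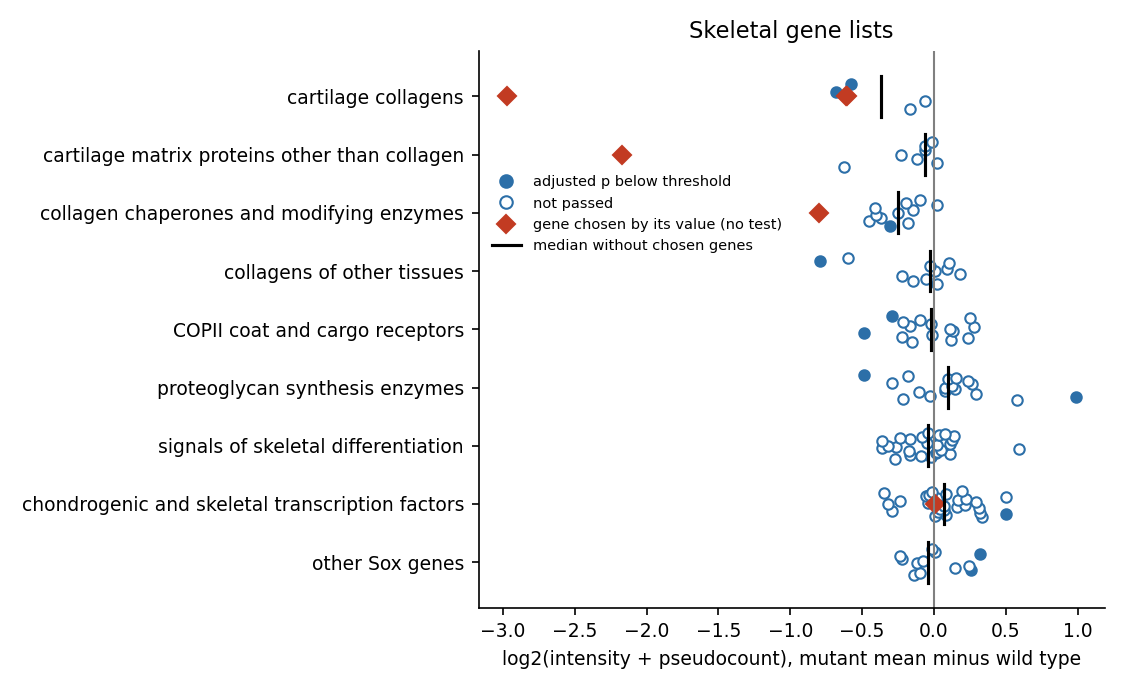
Difference in log2(intensity + pseudocount) between the mutant mean and the wild type for every tested gene of 9 lists, one point per gene. Filled points passed limma's test, open points did not, red diamonds are genes chosen with their values known and not tested, and black bars are list medians without them. The medians run from -0.37 for cartilage collagens to 0.10 for proteoglycan enzymes.

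Several of the chosen genes are also transcribed in the notochord and the ear, so markers of these and of other tissues were read beside them. For every list the calls stand against 3.74% lower and 2.19% higher among all named genes. Of 10 cartilage markers 7 are on the array, and their summed signal was 4139 in the wild type and 2602 to 2706 in the mutants. The chosen col2a1a, col9a2 and matn1 make up 2592 of the wild-type sum, so this list is largely the same measurement again. The 4 others summed to 1547 in the wild type and 1116 to 1225 in the mutants, and of the 3 of them tested 1 fell (col9a3) and 2 did not pass. The ear list, with 10 of 18 genes on the array, summed to 1189 in the wild type and 874 to 942 in the mutants. Its otolith matrix gene otomp read 397 on the wild-type array, against 225, 171 and 189 on the mutant arrays and fell 1.97-fold (limma adjusted p = 0.00188, 0.0561 with no variance trend and 0.174 under the doubled wild-type SD), and the other 7 tested genes of that list did not pass. The notochord list, with 7 of 14 on the array, summed to 567 in the wild type and 524 to 592 in the mutants, and its defining genes tbxta and noto were dim (6.95 to 24.3). Only 2 of the 7 passed the dim filter, cav1 (363 on the wild-type array) and ntd5 (132). They make up most of the sum, so this list says little about the notochord. Its brightest genes, cav1 and ntd5, differed by -0.09 and -0.05 (limma adjusted p = 0.625 and 0.874). The list of arch crest mesenchyme, with 18 of 21 on the array, summed to 4622 in the wild type and 4404 to 4448 in the mutants. There 1 fell (tfap2a, 1.26-fold, adjusted p = 0.0163, and 0.178 with no variance trend), 1 rose (dlx2a) and 15 did not pass. The bone and fibroblast list, with 12 of 21 on the array, summed to 8765 in the wild type and 8816 to 8871 in the mutants, and there col5a2a fell and 7 did not pass. The 14 neuron genes found, of 20 written, were all above the dim filter and summed to 15244 in the wild type and 14231 to 14581 in the mutants. Of these, 2 fell (isl1a and gap43), 1 rose (elavl4) and 11 did not pass, where all named genes gave 3.74% lower and 2.19% higher. The calls of isl1a, gap43 and elavl4 were all lost with no variance trend and under the doubled wild-type SD. Those of gap43 and elavl4 were also lost with no filter on dim probe sets, and that of gap43 after quantile normalization. A second isl1a probe set did not pass. Without mutant array 1 more neuron genes passed in both directions, as did probe sets over the whole array. No marker was listed at 0 in any array, several genes stand in more than one list, and the part of these tissues in the lower matrix signals was not tested.

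The genes whose mutant arrays departed from the wild type most like each chosen gene were found by the Euclidean distance over the 3 log2 differences, among 6852 named genes. Closest to col10a1a were si:ch211-255g12.6 (distance 0.575), the steroid receptor co-chaperone gene fkbp5 (1.27) and matn1 (1.40). The mutant signals of col10a1a were dim and its differences depend on the pseudocount, so its distances are no exact sizes. The gene matn1 was itself chosen with its low values known, so its place beside col10a1a is no separate finding. Closest to matn1 were the muscle parvalbumin gene pvalb1 (0.179), the embryonic globin gene hbae3 (0.340) and fkbp5 (0.375). The nearest to col2a1a were pvalb5 (0.0260), the T-box gene eomesa (0.0475) and the intermediate filament gene vim (0.0547), and those to col9a2 were pdcd6 (0.0554), ca10a (0.0621) and fkbp1b (0.0637). The gene nearest to serpinh1b was the glutamine synthetase gene glula (0.114), followed by acad8 (0.132) and si:ch211-80h18.1 (0.132). The brighter sox9b probe set lay nearest to the replication gene mcm4 (0.00940), the synaptic gene snap25a (0.0135) and taldo1 (0.0138). All these distances rest on the same wild-type array.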

How the data were processed

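Per the deposited table, each of 4 arrays of an Affymetrix zebrafish design gave 15617 linear intensity values. How the authors summarised the probes and corrected the background is not given in the sources used here. Every array had a 2% trimmed mean of 150.03, so the values had been scaled before deposit and were not scaled again. Left out were 115 control probe sets and 4651 dim ones (mean log2 value under the 30th percentile), leaving 10851. The pseudocount was the 20th percentile of all values. Symbols from the platform annotation were updated through a RefSeq table (GRCz12tu, 10718 of 10802 matched, 1 changed).

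The comparison used limma 3.58.1 in R 4.3.3 (lmFit, eBayes with a variance trend, two-sided, Benjamini-Hochberg over all 10851). The single wild-type array was taken to vary like the mutant arrays, which supply the 2 residual degrees of freedom (7.89 prior). P-values therefore rest on the spread between these arrays, possibly technical, and the number of arrays limits precision. Permuting 4 arrays gives no p under 0.25. The code was tested on simulated arrays.

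The chosen genes, 9 pathway lists and 8 marker lists were set with earlier results of these data known. A gene was represented by its brightest tested probe set. The text names, per pathway list, up to 6 called genes with the largest difference and 2 with the smallest p among the rest, and per marker list up to 3 called genes or else the 2 brightest. Added after their values were seen were matn4, acanb, col10a1b, col1a1a, col1a2, plod1a, sec23a, sox5, sox10, dlx4a, fgfr3, nog3, papss1, runx2a, sp7, ihha, ihhb, tbxta, noto and gfap. Alternatives were other pseudocounts, dim filters and normalizations, no variance trend, a doubled wild-type SD, leaving out each mutant array, and averaging the probe sets of a gene.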

Additional observations from a re-analysis of the deposited data

How the results depend on the processing

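Of 8 probe sets of the chosen genes, none changed direction under the 12 alternatives except the brighter sox9b one, which has no clear sign (-0.03 to 0.03). The range was -3.68 to -2.18 for col10a1a, -2.34 to -1.88 for matn1, -0.64 to -0.59 for col2a1a, -0.64 to -0.57 for col9a2 and -0.86 to -0.73 for serpinh1b. Among all probe sets, 341 were lower and 256 higher. Without a variance trend these were 137 and 27, and with the doubled wild-type SD 44 and 3. With no filter on dim probe sets 129 were higher. Leaving out 1 mutant array gave 344 to 866 lower and 213 to 1179 higher, with both upper values reached without array 1. Of 128 genes in the pathway lists outside the chosen set, 7 were lower and 4 higher, where all named genes gave 3.74% and 2.19%. The counts ran from 6 to 22 lower and from 3 to 9 higher with an array left out. These became 3 and 1 with no filter, and 1 and 0 without a variance trend (17 and 12 at an unadjusted p under 0.05 in limma). They were 0 and 0 with the doubled wild-type SD (7 and 4 unadjusted). Among the 4 genes called higher in the main fit were chst11 and sox11b, whose limits are given above. After cyclic loess 2 genes were higher, and 2 were higher with the mean over a gene's probe sets. The causes were not tested, apart from the larger assumed wild-type spread, which widens every error by construction. Of 22 called genes named from the lists, 5 kept their call without a variance trend and 1, krt97, with the doubled wild-type SD. Most named genes not past the threshold whose sign changed with an array left out lay near 0: col11a2 (-0.11 to 0.0092), ntd5 (-0.10 to 0.024), col1a2 (-0.092 to 0.012), sec23a (-0.029 to 0.0083) and sox5 (-0.066 to 0.023). The exception was runx2a, with a wider range (-0.087 to 0.22). Under another scaling, plod1a turned to -0.012 after cyclic loess and sox5 to 2.2e-04 after quantile normalization. No paired analysis was possible because the groups share only replicate number 1. No wild-type array could be left out, so all values rest on it. At sox9a and the other sox9b probe set the signal was too dim to show a change.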

Other observations

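The fin fold and epidermis markers moved in both directions. Of 28 genes 19 are on the array and 18 were tested, of which 4 rose, 3 fell and 11 did not pass limma's test. All named genes gave 2.19% higher and 3.74% lower. Without mutant array 1 more of these markers passed in both directions, as did probe sets over the whole array. Their summed signal was 26247 in the wild type and 29297 to 30915 in the mutants. The keratin gene krt97 read 818 on the wild-type array, against 1440, 1346 and 1358 on the mutant arrays (1.67-fold higher, adjusted p = 1.52e-04), and the annexin gene anxa1c rose 1.61-fold (adjusted p = 4.10e-04, and 0.0579 with the doubled wild-type SD). The keratin gene krt94 went the other way, from 152 to 65.7, 73.4 and 81.0 (1.88-fold lower, adjusted p = 0.00518, and 0.339 with the doubled wild-type SD). Of 9 tested radial glia genes 4 fell, 1 rose (sox3) and 4 did not pass, against the same shares over all named genes. With no variance trend 1 fell and 0 rose. The glial filament gene gfap read 108 on the wild-type array, against 120, 117 and 115 on the mutant arrays, and did not pass. Among the 4 that fell, glula read 645 on the wild-type array, against 339, 396 and 396 on the mutant arrays (1.69-fold lower, adjusted p = 0.00140), and the gap junction gene gja1b fell 1.57-fold (adjusted p = 6.33e-04). The intermediate filament gene vim fell 1.51-fold (adjusted p = 0.00503). The calls of glula and gja1b were lost with the doubled wild-type SD (0.139 and 0.0791), as was that of vim (0.334), and those of glula and vim also without a variance trend (0.0585 and 0.0596).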
